A study of Mus musculus with 11 samples.

Results

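The adenylyl cyclases Adcy1 to Adcy9 are the 9 membrane-bound enzymes that make cyclic AMP in the mouse. They were taken by gene symbol from the deposited table of normalized values and followed by Ensembl ID into the deposited counts, as 9 of 48709 rows of mouse genes. Of these 9, 8 had enough reads for the test across genes, among 14757 genes tested, and Adcy2 did not. The family was selected on its expression values in Het against WT, which were already known, so what follows on that contrast describes the members. Calls of the members come from those same values and are no independent support.

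RNA was measured by bulk sequencing of the aortic arch at postnatal day 11, with no treatment. The Het group held 6 libraries from mice that carry 1 Tgfbr2 allele with the G357W substitution and 1 wild-type allele, a model of Loeys-Dietz syndrome, an inherited aortic aneurysm disorder. The WT group held 5 libraries from their wild-type littermates. Tgfbr2 encodes a receptor for TGF-beta, and the labels give the genotype for the animal and not for 1 cell type. Strain and sex are not in the labels, and each library was taken as 1 animal because the series description counts as many mice as libraries.

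Adenylyl cyclases convert ATP to cyclic AMP, a second messenger that in vascular smooth muscle promotes relaxation and restrains growth. Receptors coupled to the stimulatory G protein Gs switch the enzymes on, receptors coupled to Gi hold them back, and phosphodiesterases break the product down. The isoforms differ in what else controls them: calcium with calmodulin stimulates Adcy1, Adcy3 and Adcy8, the beta and gamma subunits of G proteins stimulate Adcy2, Adcy4 and Adcy7, calcium inhibits Adcy5 and Adcy6, and Adcy9 is little affected by the plant compound forskolin that activates the others.

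The arch carried its smooth muscle markers at a summed level of 30420 to 41440 CPM (counts scaled to a common library total) in Het libraries. In WT libraries the sum was 33560 to 38070 CPM. Acta2 made up most of it, with means of 27880 CPM in Het and 27060 CPM in WT. Of the 6 markers 1 passed the test across genes, Cnn1, which was lower in Het. Myh11, Tagln and Lmod1 also had lower means in Het, while Acta2 and Smtn had higher ones. The endothelial markers of the arch summed to 293.9 to 479.9 CPM in Het and 313.7 to 441.2 CPM in WT. Most of this sum was Pecam1, with means of 243.1 CPM in Het and 295.7 CPM in WT. Cdh5, Tek, Kdr and Vwf had higher means in Het, and none of the 5 passed the test across genes. Fibroblast markers were present as well, at 1232 to 2021 CPM in Het and 1170 to 1871 CPM in WT, although the labels name smooth muscle and endothelial cells alone. Library totals lay between 13113467 and 19327935 counts, so that 3 counts, the limit that a count of 0 allows, came to 0.154 to 0.231 CPM (counting error only). Xist, the transcript of the inactive X chromosome, was at 75.0 and 77.3 CPM in Het 1 and Het 2 and at 58.4 to 78.6 CPM in all 5 WT libraries. In Het 3 to Het 6 it did not exceed 0.735 CPM, and these alone had the Y-linked Ddx3y, at 86.4 to 110.5 CPM, against 0 counts in the other 7 libraries. No WT library therefore stands beside the 4 Y-positive Het libraries, and the cyclases' values in the 2 Xist-positive Het libraries are given apart below. Tgfbr2 itself was at 39.0 ± 8.22 CPM in Het and 41.3 ± 4.29 CPM in WT (SD, n = 6 and 5), a difference that did not pass edgeR's quasi-likelihood test (adjusted p = 0.79); a count per gene does not separate its 2 alleles.

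Upstream sequence was matched in RefSeq (GRCm38.p6) for 7 of the 9 genes, over 10 windows of 250 bases before a transcription start, and not for Adcy6 and Adcy8. The windows of Adcy1, Adcy7 and Adcy5 are shown here because Adcy1 and Adcy7 differ most clearly between the groups and Adcy5 has the highest level. They lie at chr11:7063183-7063432 for Adcy1, chr16:35154614-35154863 for Adcy5 and chr8:88282742-88282991 for Adcy7, all on the plus strand, the last being the most upstream of 3 windows listed for Adcy7. Each reads 5′ to 3′ and ends at the base before the start. Capitals mark the GC box, GGGCGG or its complement CCGCCC, in Adcy1 and Adcy5, and the half-site of the cAMP response element, CGTCA on this strand for TGACG on the other, in Adcy7.
Adcy1: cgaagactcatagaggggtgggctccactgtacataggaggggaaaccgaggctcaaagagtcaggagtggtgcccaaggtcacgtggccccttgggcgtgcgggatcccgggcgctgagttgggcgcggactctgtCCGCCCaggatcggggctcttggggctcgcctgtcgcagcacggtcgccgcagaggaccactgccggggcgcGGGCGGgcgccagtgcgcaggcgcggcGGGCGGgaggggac
Adcy5: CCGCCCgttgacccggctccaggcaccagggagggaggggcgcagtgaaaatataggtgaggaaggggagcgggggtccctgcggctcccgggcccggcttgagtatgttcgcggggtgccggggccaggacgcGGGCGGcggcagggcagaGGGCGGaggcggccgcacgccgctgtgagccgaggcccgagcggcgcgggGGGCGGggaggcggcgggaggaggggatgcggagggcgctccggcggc
Adcy7: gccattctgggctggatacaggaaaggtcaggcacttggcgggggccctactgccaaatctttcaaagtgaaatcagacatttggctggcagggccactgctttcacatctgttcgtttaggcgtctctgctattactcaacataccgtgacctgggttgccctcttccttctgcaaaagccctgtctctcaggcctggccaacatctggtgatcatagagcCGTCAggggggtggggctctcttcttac
The Adcy1 window is 71.2% G and C and holds 3 GC boxes, and the Adcy5 window is 78% G and C and holds 4, against a median of 52.4% G and C over all 32851 RefSeq windows of this length. The Adcy7 window, at 54% G and C, has no GC box and 1 half-site, at base -28 from the start. The other 2 Adcy7 windows hold no half-site, and 1 of them holds 1 GC box. All 3 lie inside the annotated gene, which starts upstream of them at base 88272403 of chromosome 8. The letters GGGCGG occur on either strand in 32.7% of all windows and TGACG in 17.8%. The full element TGACGTCA, in 1.55% of all windows, and the palindromic Smad element GTCTAGAC, in 0.167%, were not found in these 3 windows on either strand. A match is a run of letters and not a bound site.

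Adcy5 and Adcy7 made up most of the cyclase transcripts of the arch, and the order of the 9 levels was much alike in both groups except for Adcy1. Levels were compared between genes as CPM per kilobase of exon, and a level in bulk tissue cannot tell fewer cells of a type from less RNA per cell. Adcy5, a calcium-inhibited isoform known for its role in heart and arterial muscle, was the highest at 32.1 ± 3.69 CPM per kilobase in Het and 27.2 ± 3.76 in WT (SD, n = 6 and 5, also below). Adcy7 followed at 9.76 ± 0.923 CPM per kilobase in Het and 13.8 ± 1.65 in WT. Both positions held in 11 of 11 libraries.

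Adcy4, at 3.49 ± 0.495 CPM per kilobase in Het and 3.52 ± 0.74 in WT, and Adcy6, at 3.03 ± 0.307 in Het and 2.28 ± 0.504 in WT, came next and were not apart beyond their spread, although Adcy4 was above Adcy6 in 10 of 11 libraries. Every library had Adcy6 above Adcy3, which averaged 0.845 ± 0.268 CPM per kilobase in Het and 1.25 ± 0.324 in WT. Adcy9 averaged 0.443 ± 0.201 CPM per kilobase in Het and 0.667 ± 0.262 in WT and was below Adcy3 in 9 of 11 libraries. Adcy1 averaged 0.645 ± 0.112 CPM per kilobase in Het and 0.115 ± 0.0505 in WT, which placed it above Adcy9 in all but 1 of 6 Het libraries and below it in 5 of 5 WT libraries. Adcy2 averaged 0.107 ± 0.0886 CPM per kilobase in Het and 0.135 ± 0.175 in WT, and Adcy8 averaged 0.0781 ± 0.0571 in Het and 0.104 ± 0.029 in WT. These 2 isoforms in Het, and both of them with Adcy1 in WT, were not apart beyond their spread. By group means Adcy1 was thus the sixth of the 9 isoforms in Het and the eighth in WT.

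**Figure D1:**
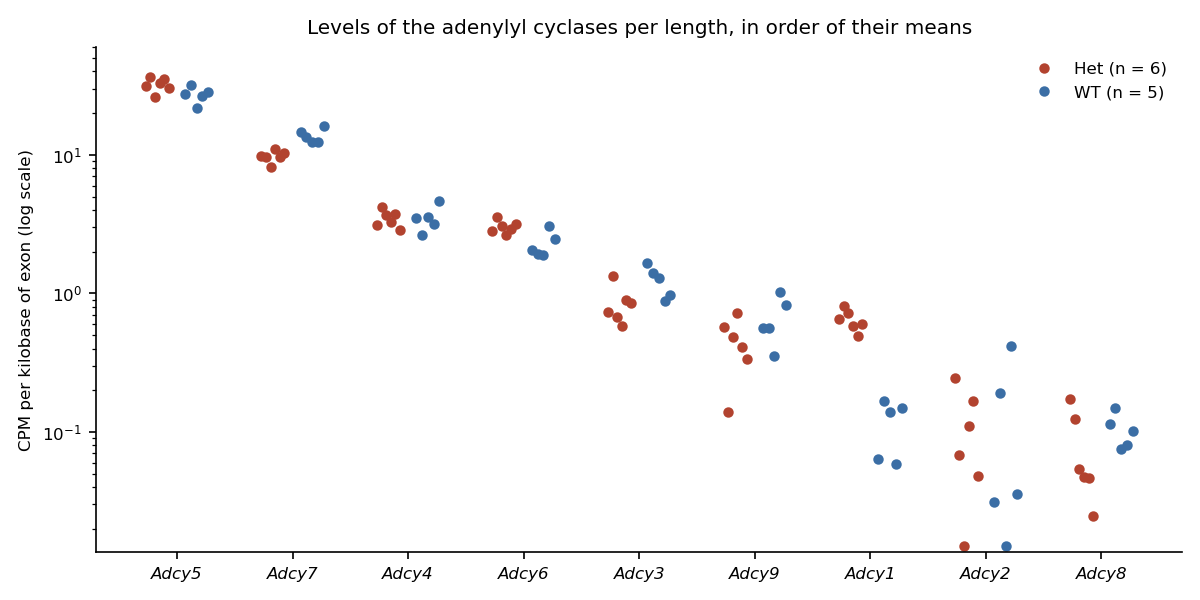
Level of each adenylyl cyclase in every library, in CPM per kilobase of exon on a log axis, with the isoforms in order of their mean over the 11 libraries and Het (red) left of WT (blue). Adcy5 and Adcy7 stand above all others in every library, Adcy1 is the isoform whose 2 groups are farthest apart, and the 0 counts of Adcy2 in Het 3 and WT 3 are drawn at the lower edge.

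The summed level of the 9 isoforms was 50.5 ± 4.60 CPM per kilobase in Het and 49.0 ± 4.99 in WT, a difference within the spread of either group. Its make-up differed. Adcy5 took 60.7 to 65.6% of the sum in Het libraries and 52.4 to 60.9% in WT libraries, and Adcy7 took 17.1 to 21.2% in Het and 25.7 to 30.1% in WT. The shares of Adcy7 did not overlap between the groups, while those of Adcy5 met at their edges. Adcy1 took 1.29 ± 0.262% of the sum in Het and 0.236 ± 0.104% in WT, so that its difference moved the total little.

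The level of Adcy5 over that of Adcy7, per length, was 2.95 to 3.79 in Het libraries (median 3.21) and 1.75 to 2.37 in WT libraries (median 1.88). Every Het ratio was above every WT ratio, but the ratio, like the Adcy7 share, restates in part the lower Adcy7 of Het. By class, the isoforms stimulated by G protein beta and gamma subunits summed to 11.9 to 14.3 CPM per kilobase in Het. In WT they summed to 15.9 to 20.9, again without overlap, and Adcy7 made up most of that sum. How often such ratios, shares and sums stay apart over other genes was not counted, so nothing is read from this. Adcy6 over Adcy7 was 0.242 to 0.375 in Het and 0.141 to 0.249 in WT. Adcy5 over Adcy6 was 8.5 to 12.5 in Het and 8.58 to 16.8 in WT, and both of these ratios overlapped. The calcium-inhibited class summed to 35.2 ± 3.76 CPM per kilobase in Het and 29.5 ± 3.79 in WT. The class that calcium and calmodulin stimulate summed to 1.57 ± 0.365 in Het and 1.47 ± 0.344 in WT, and within it the level of Adcy1 over that of Adcy3 was 0.552 to 1.08 in Het and 0.0379 to 0.154 in WT.

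**Figure D2:**
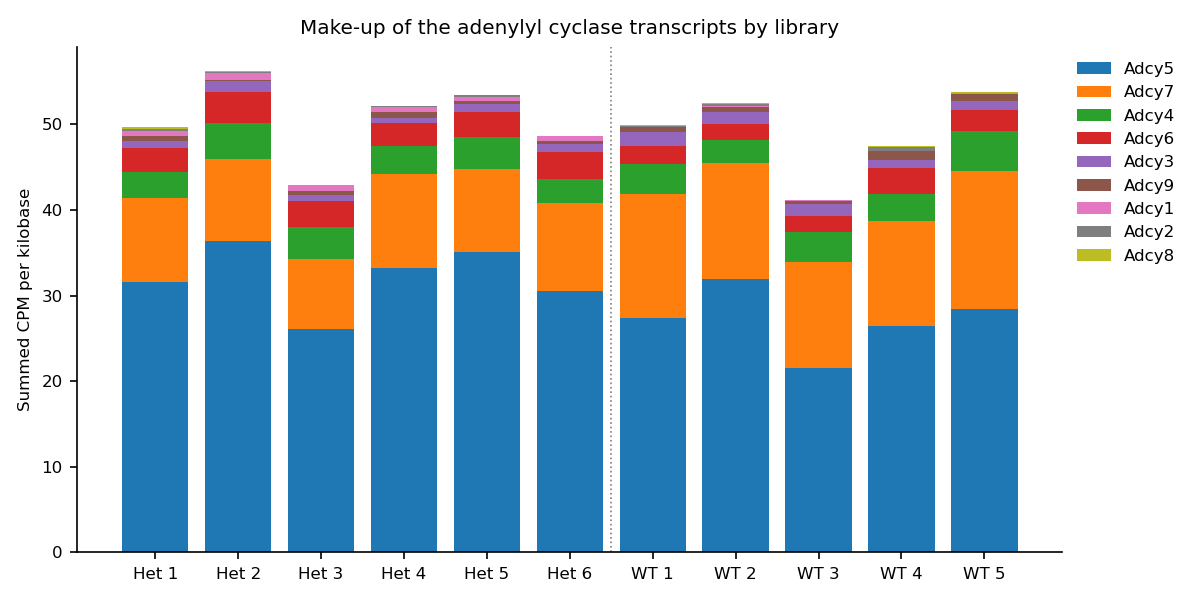
Stacked levels of the 9 adenylyl cyclases in each library, in summed CPM per kilobase of exon, Het libraries left of the dotted line and WT libraries right of it. The height of the bars is alike in the 2 groups, and the Adcy7 segment is narrower in every Het library, at 17.1 to 21.2% of the bar against 25.7 to 30.1% in WT.

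Among the 8 tested members, 1 was called higher in Het (Adcy1) and 1 lower (Adcy7), at a Benjamini-Hochberg adjusted p under 0.05 over all genes in edgeR's quasi-likelihood test. Over all tested genes the share called was 5.03%, with 2.65% higher and 2.38% lower in Het. The same 2 members were the ones whose Het and WT values did not overlap, which was so for 4.61% of all tested genes. By direction, 2.41% of genes lay wholly higher and 2.2% wholly lower in Het. With other settings the share of all genes called was 0.834% with the sex score, where Adcy1 alone of the members passed, and 0.218% over the Xist-positive libraries, where again Adcy1 passed. It was 2.81% with the column number, 2.84% without WT 1 and WT 2, 2.28% with a replicate block and 8.78% by DESeq2, each with Adcy1 and Adcy7 called, and 5.69% without WT 4, which added Adcy6. Since the family was chosen with this contrast known, nothing is read from these counts. The median log2 fold change of the 8 members was -0.21, beside -0.0046 over all tested genes.

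**Figure D3:**
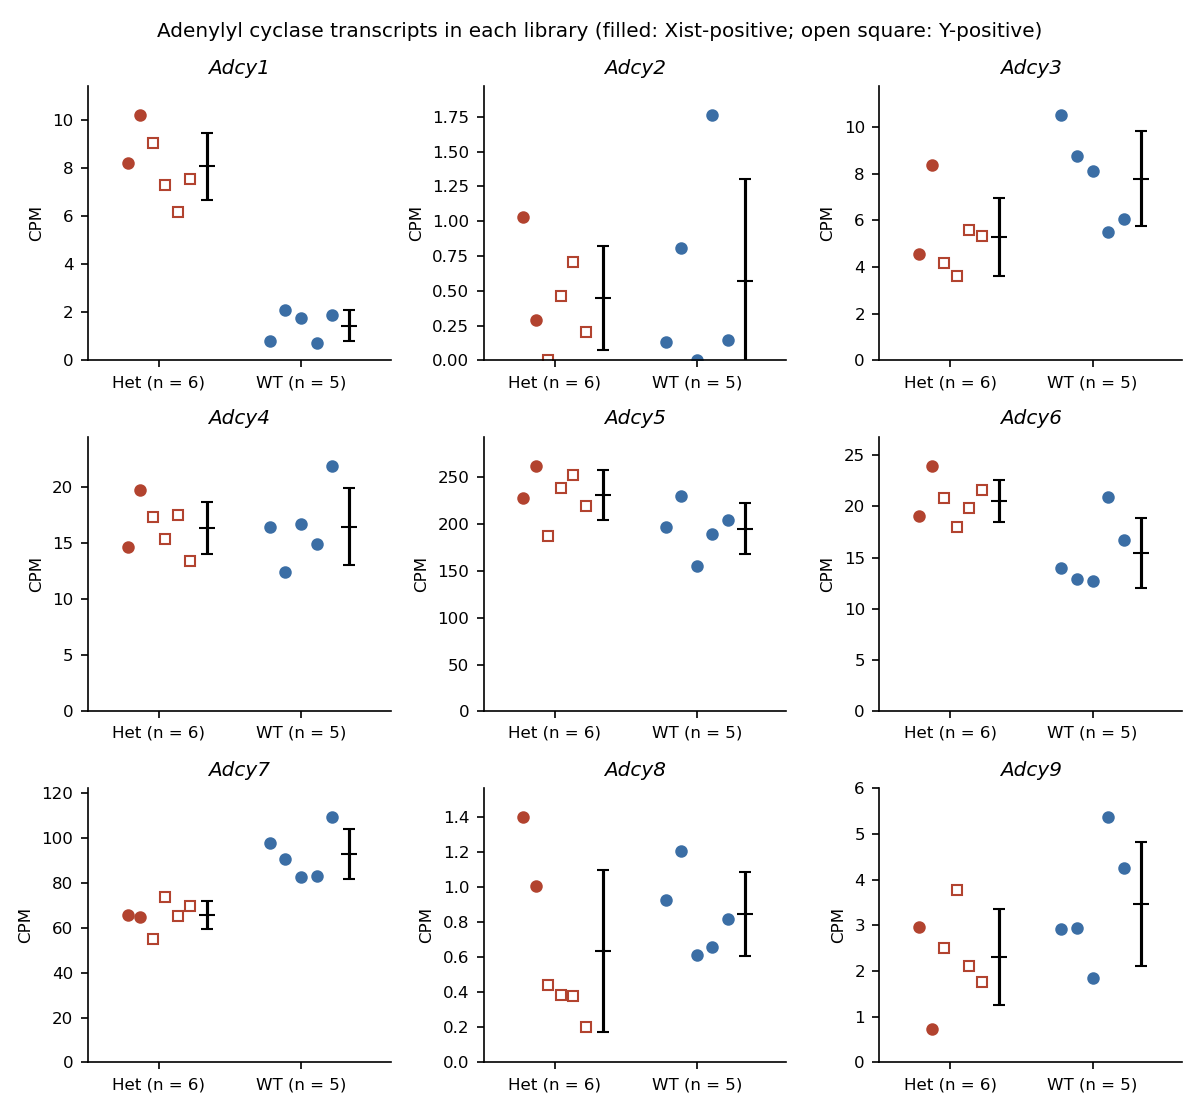
CPM of each adenylyl cyclase in the 6 Het libraries (red, left) and the 5 WT libraries (blue, right), with bars for mean ± SD; filled circles are Xist-positive and open squares Y-positive libraries. Adcy1 lies higher and Adcy7 lower in every Het library than in any WT library, and the other 7 overlap.

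Of the isoforms stimulated by calcium and calmodulin, Adcy1 had the largest difference in the family. Adcy1 (ENSMUSG00000020431, a protein-coding gene at chr11:7063489-7178506 of GRCm38, plus strand) encodes an isoform best known from neurons, where it links calcium entry to cyclic AMP. It was at 6.18 CPM in the lowest Het library, 7.88 at the median and 10.2 in the highest, against 0.794, 2.08, 1.75, 0.735 and 1.87 CPM in WT 1 to WT 5. All 6 Het libraries lay above all 5 WT libraries, and the nearest pair of values was about as far apart as the whole Het range. These values rest on 95 to 141 counts per Het library and 10 to 34 per WT library. The log2 fold change was 2.47 ± 0.27 (SE), or 5.53-fold, the tenth highest of 14757 tested genes. The 2 Xist-positive Het libraries had 8.20 and 10.2 CPM and the 4 Y-positive ones 6.18 to 9.04. With a score of sex-linked genes as a covariate the log2 fold change was 2.68 ± 0.33, and over the Xist-positive libraries alone it was 2.66 ± 0.39.

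Markers of other tissues were mixed in level and direction. The 7 neuron markers summed to 0.921 to 5.511 CPM in Het and 0.9931 to 2.516 CPM in WT, and each had 0 counts in some library. The 1 that could be tested, Tubb3, had a log2 fold change of 1.50 ± 0.93 and did not pass, with 4 of 6 Het libraries above all WT libraries. Th reached 2.94 CPM in Het 3, but its median was 0.218 CPM in Het and 0.299 CPM in WT. Elavl4 went the other way from Tubb3, averaging 0.330 CPM in Het and 0.714 CPM in WT. Snap25, Syt1, Rbfox3 and Dbh did not average above 0.278 CPM in either group. The 6 skeletal muscle markers summed to 8.56 to 15.74 CPM in Het and 18.89 to 39.53 CPM in WT, without overlap, and most of this was Tnnt3. Of the 3 tested, Tnnt3 passed and was lower in Het, Acta1 had a log2 fold change of 0.55 ± 0.39 and Mylpf of 0.068 ± 0.26, neither passing, while Ckm, Myh1 and Myh4 were at 0 in some libraries. The 6 cartilage markers summed to 3.305 to 8.071 CPM in Het and 6.674 to 10.53 CPM in WT, which overlap. Of the 3 tested, Sox9 passed and was lower in Het, Col9a1 had a log2 fold change of -0.72 ± 0.54 and Col11a1 of 0.88 ± 0.53, neither passing. Matn1 was at 0 throughout, and Comp, not tested, averaged 0.439 CPM in Het and 0.0897 CPM in WT. The 6 cardiomyocyte markers summed to 25.42 to 32.66 CPM in Het and 26.9 to 31.91 CPM in WT. Of the 5 tested 1 passed, Ryr2, which was higher in all 6 Het libraries (log2 fold change 1.07 ± 0.23). Tnnt2 had a log2 fold change of -0.43 ± 0.16, Myl7 of -0.52 ± 0.51, Myh6 of -0.18 ± 0.34 and Myh7 of 0.67 ± 0.25, none passing. Nppa was at 0 in some libraries. Brown fat markers ranged from 260.9 to 1833 CPM in Het and from 676.5 to 2417 CPM in WT, and none of the 4 passed. The part of these tissues in the cyclase differences was not tested.

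The column names carry a number, 6 or 7, that the labels do not explain. Among columns with 6, Adcy1 was at 6.18 to 10.2 CPM in the 4 Het libraries and 1.75 CPM in the 1 WT library. Among columns with 7, it was at 7.55 and 9.04 CPM in the 2 Het libraries and 0.735 to 2.08 CPM in the 4 WT libraries.

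Adcy3 and Adcy8 share this calmodulin control and overlapped between the groups. Adcy3 (ENSMUSG00000020654, chr12:4133103-4213525, plus strand), known from the cilia of olfactory and other neurons and expressed widely, was at 3.62 CPM in the lowest Het library, 4.95 at the median and 8.36 in the highest. Its WT values were 10.5, 8.78, 8.11, 5.51 and 6.05 CPM. Of the 6 Het libraries, 4 were below all WT libraries and Het 2 and Het 5 were not. At a log2 fold change of -0.56 ± 0.23, Adcy3 did not pass. It was -0.30 ± 0.31 with the sex score, -0.26 ± 0.33 over the Xist-positive libraries and -0.32 ± 0.26 without WT 1 and WT 2. The 2 Xist-positive Het libraries had 4.58 and 8.36 CPM. Because 22.1% of the exon bases of Adcy3 overlap Cenpo on the other strand in unstranded libraries, the 2 genes cannot be told apart there. Cenpo, a centromere protein, was at 10.4 ± 1.16 CPM in Het and 8.64 ± 2.20 CPM in WT.

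Adcy8 (ENSMUSG00000022376, chr15:64697084-64922296, minus strand), another neuronal isoform, was close to the floor with 3 to 19 counts per Het library and 9 to 18 per WT library. It was at 1.40 and 1.01 CPM in the Xist-positive Het 1 and Het 2, at 0.202 to 0.441 CPM in the 4 Y-positive Het libraries, and at 0.927, 1.21, 0.616, 0.661 and 0.822 CPM in WT 1 to WT 5. The Y-positive Het libraries were below every WT library and the Xist-positive ones among or above them. The log2 fold change was -0.42 ± 0.47 over all libraries, but 0.49 ± 0.47 with the sex score and 0.52 ± 0.53 over the Xist-positive libraries, and passed in none of these.

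Of the isoforms stimulated by G protein beta and gamma subunits, Adcy7 was lower in Het. Adcy7 (ENSMUSG00000031659, chr8:88272403-88329962, plus strand) is widely expressed and is known from blood and immune cells. It was at 55.1 CPM in the lowest Het library, 65.5 at the median and 73.8 in the highest, against 97.9, 90.8, 82.8, 83.1 and 109.2 CPM in WT 1 to WT 5. No Het library reached the lowest WT library. The log2 fold change was -0.50 ± 0.10, or 0.708-fold, on 750 to 1206 counts per Het library and 1131 to 1613 per WT library. The 2 Xist-positive Het libraries, at 64.6 and 65.7 CPM, lay within the range of the 4 Y-positive ones. The size stayed at -0.52 ± 0.14 with the sex score and -0.50 ± 0.14 over the Xist-positive libraries alone, and passed in neither. Macrophage markers summed to 21.38 to 61.48 CPM in Het and 18.02 to 48.5 CPM in WT, and none of the 4 passed. T cell and thymocyte markers summed to 2.09 to 26.67 CPM in Het and 2.412 to 7.849 CPM in WT. Platelet markers summed to 17.38 to 37.33 CPM in Het and 9.379 to 35.13 CPM in WT. None of those tested in these lists passed.

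Adcy4 (ENSMUSG00000022220, chr14:55769057-55784095, minus strand), known from endothelium and other vascular cells, was at 16.3 ± 2.31 CPM in Het and 16.5 ± 3.46 CPM in WT. The Het range of 13.4 to 19.7 CPM lay inside the WT range of 12.4 to 21.8 CPM, and the Xist-positive Het libraries had 14.6 and 19.7 CPM. Its log2 fold change of -0.012 ± 0.15 bounds a difference between the groups to a small size but does not show that there is none, and its sign turned with the setting. Adcy2 (ENSMUSG00000021536, chr13:68620043-68999541, minus strand), a brain and muscle isoform, was at or near the floor. It had 0 to 14 counts per Het library and 0 to 24 per WT library, with 0 in Het 3 and WT 3, which allows up to 0.22 CPM in Het 3 and 0.154 CPM in WT 3. The other libraries had 0.202 to 1.03 CPM in Het (1.03 and 0.288 in the Xist-positive ones) and 0.132 to 1.76 CPM in WT, and no test was made. An antisense gene, Gm35161, covers 4.49% of its exon bases.

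The calcium-inhibited isoforms were the ones with higher means in Het that did not pass. Adcy5 (ENSMUSG00000022840, chr16:35154877-35305738, plus strand) was at 187.2 CPM in the lowest Het library, 232.9 at the median and 261.6 in the highest, against 196.8, 229.9, 155.3, 189.6 and 204.3 CPM in WT 1 to WT 5. Of the 6 Het libraries 3 were above all WT libraries, while Het 3, at 187.2, was below 4 of 5 of them. The Xist-positive Het libraries had 227.4 and 261.6 CPM. Its log2 fold change was 0.24 ± 0.11 and lay between 0.17 and 0.34 in the 24 other settings tried, passing in none. Adcy6 (ENSMUSG00000022994, chr15:98589973-98610076, minus strand), the close relative of Adcy5 in heart and vessel, was at 18.0 CPM in the lowest Het library, 20.3 at the median and 23.9 in the highest, against 14.04, 12.9, 12.7, 20.9 and 16.7 CPM in WT 1 to WT 5. All Het libraries were above 4 of the 5 WT libraries, and WT 4 lay among them. The Xist-positive Het libraries had 19.1 and 23.9 CPM. The log2 fold change was 0.41 ± 0.14 and did not pass, except without WT 4, where it was 0.54 ± 0.13. An antisense gene, Gm29331, covers 8.92% of the exon bases of Adcy6.

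Adcy9 (ENSMUSG00000005580, chr16:4287529-4420498, minus strand), the most divergent membrane isoform, was at 0.721 CPM in the lowest Het library, 2.31 at the median and 3.77 in the highest, against 2.91, 2.95, 1.85, 5.36 and 4.26 CPM in WT 1 to WT 5. The groups overlapped widely, and Het 2 was the lowest of all with 10 counts. The Xist-positive Het libraries had 2.96 and 0.721 CPM. At a log2 fold change of -0.59 ± 0.36, Adcy9 did not pass. Adcy10, the soluble cyclase that bicarbonate activates and that is not one of the 9, did not exceed 0.488 CPM in any library.

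**Figure D4:**
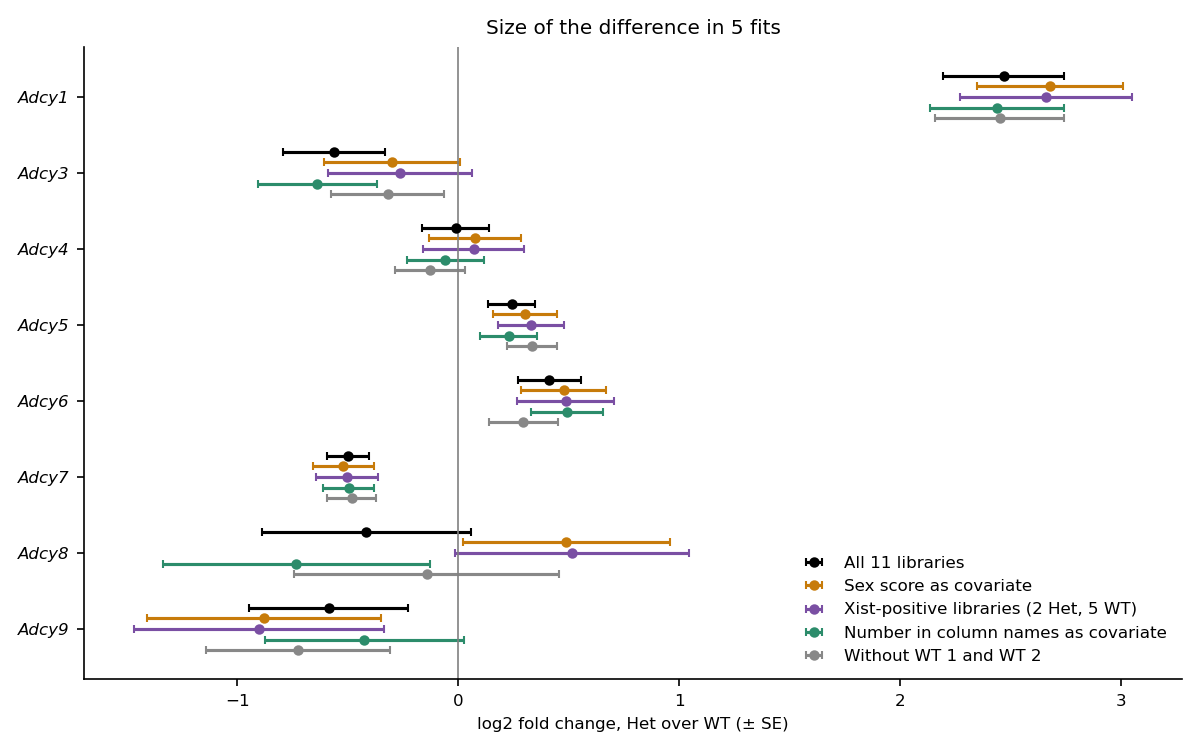
Log2 fold change of Het over WT, ± SE, for the 8 tested adenylyl cyclases in 5 fits: all 11 libraries, the sex score as a covariate, the Xist-positive libraries alone (2 Het, 5 WT), the column number as a covariate, and without WT 1 and WT 2. Adcy1 lies between 2.44 and 2.68 and Adcy7 between -0.52 and -0.48, whereas Adcy8 lies above 0 in the sex score and Xist-positive fits and below 0 in the other 3.

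The other genes of the pathway were followed through a list of 99, of which 82 could be tested. Among these 6 rose in Het and 3 fell, or 11% of those tested, beside 5.03% of all genes, and the median log2 fold change of the list was 0.068. The 9 genes encode receptors, enzymes that break cyclic AMP down, a calmodulin, and proteins that bind cyclic AMP or the kinase it activates. All p-values here are from edgeR's quasi-likelihood test, adjusted over the 14757 genes. Of the 9 genes, 1 (Akap12) passed with the sex score and 0 passed over the Xist-positive libraries. The direction was unchanged for all 9 in both. Over the Xist-positive libraries 12 of 85 tested genes of the list had an unadjusted p under 0.05. The matching share over all genes was not taken, so nothing is read from the 12. The part of sex in these differences cannot be told apart from genotype in the Y-positive libraries.

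Of 15 tested Gs-coupled receptors and partners, 2 rose and 2 fell. Crhr2, a receptor for urocortins that relaxes arteries, rose to 19.8 CPM in the lowest Het library, 23.4 at the median and 29.6 in the highest, against 15.9, 14.1, 7.75, 12.6 and 9.64 CPM in WT 1 to WT 5. No value overlapped, and the log2 fold change was 1.01 ± 0.17 (adjusted p = 0.003). Vipr1, a receptor for vasoactive intestinal peptide, fell to 1.50 ± 1.08 CPM in Het, against 5.02 ± 0.714 CPM in WT (log2 fold change -1.71 ± 0.38, adjusted p = 0.0151). Its Het values rest on 6 to 64 counts per library, and its call was lost without WT 1 and WT 2 together (adjusted p = 0.0677). Of the 9 genes, Crhr2, Akap12 and Pde3a kept their calls in that setting. Calcrl and Ramp1 together form the receptor for calcitonin gene-related peptide, a strong dilator. Calcrl rose, with 31.2 ± 2.87 CPM in Het and 22.4 ± 4.00 CPM in WT (adjusted p = 0.0372), and Ramp1 fell, with 313.4 ± 23.1 CPM in Het and 392.2 ± 39.3 CPM in WT (adjusted p = 0.0336). The call of Calcrl was lost without Het 2, Het 3, Het 4, Het 6, WT 1, WT 2 or WT 5 (adjusted p up to 0.0891), and that of Ramp1 without Het 2, Het 3, Het 4, Het 6, WT 2 or WT 3 (up to 0.0942).

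None of the 7 G protein alpha subunits passed in edgeR, where 1 had an unadjusted p under 0.05, and 0 passed in DESeq2 or limma voom. Gnas, which encodes the stimulatory subunit, was at 4.56 ± 0.751 CPM in Het and 3.80 ± 1.79 CPM in WT (log2 fold change 0.27 ± 0.28, adjusted p = 0.662), and 22% of its exon bases overlap genes on the other strand, Nespas and Gm20721. How reads over the overlapping transcripts of this locus were counted is not stated, so its low level is uncertain, and its log2 fold change was 0.090 without WT 4, 0.14 without WT 3, 0.49 without WT 5 and 0.41 without WT 1. Gnai2, an inhibitory subunit, differed by 0.20 ± 0.11 on the log2 scale (adjusted p = 0.363). Of 7 tested regulators of the cyclases, 1 rose. Calm2, 1 of the genes for calmodulin, the calcium sensor that acts on Adcy1, Adcy3 and Adcy8, was at 385.9 ± 13.4 CPM in Het and 307.8 ± 41.6 CPM in WT (log2 fold change 0.33 ± 0.09, adjusted p = 0.0419). Leaving out any 1 library other than WT 4 ended this call (adjusted p up to 0.11).

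Of 14 tested phosphodiesterases of cyclic AMP, 1 rose and 1 fell. Pde3a, the main such enzyme of arterial muscle and one that cyclic GMP inhibits, rose to 131.7 ± 8.42 CPM in Het, against 99.95 ± 11.2 CPM in WT (log2 fold change 0.40 ± 0.09, adjusted p = 0.0129), without overlap. A gene on the other strand, Gm28523, covers 5.82% of its exon bases. Pde1a, an enzyme that calcium and calmodulin activate, fell to 72.9 ± 6.06 CPM in Het, against 90.7 ± 2.58 CPM in WT (log2 fold change -0.31 ± 0.08, adjusted p = 0.0262), also without overlap. The call of Pde1a ended without Het 1, Het 2, Het 3, Het 5, WT 2 or WT 3 (adjusted p up to 0.0623).

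None of the 8 tested subunits and inhibitors of protein kinase A passed in edgeR, with 0 at an unadjusted p under 0.05, and 0 passed in DESeq2 or limma voom. Prkaca, a catalytic subunit, was at 34.2 ± 3.58 CPM in Het and 32.3 ± 5.27 CPM in WT (adjusted p = 0.772), and Prkar1a, a regulatory subunit, at 781.1 ± 67.1 CPM in Het and 795.7 ± 54.1 CPM in WT (adjusted p = 0.909). Of the 10 tested anchoring proteins that place this kinase in the cell, 1 rose. Akap12, known as gravin, was at 129.0 CPM in the lowest Het library, 152.8 at the median and 187.5 in the highest, against 98.8, 85.5, 86.0, 113.9 and 119.5 CPM in WT 1 to WT 5. All Het libraries lay above all WT libraries, and the log2 fold change was 0.64 ± 0.11 (adjusted p = 0.00373). With the sex score it was 0.71 ± 0.15 (adjusted p = 0.0413).

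Of 5 tested other effectors, 1 rose. Bves, a popeye domain protein that binds cyclic AMP, was at 7.54 ± 1.38 CPM in Het and 4.67 ± 0.777 CPM in WT (log2 fold change 0.69 ± 0.19, adjusted p = 0.0439). Het 3, at 4.85 CPM, lay inside the WT range, and the call was lost when any 1 library other than Het 3 or WT 5 was left out (adjusted p up to 0.1). None of the 9 CREB factors, coactivators and salt inducible kinases passed in edgeR, DESeq2 or limma voom, with 1 at an unadjusted p under 0.05 in edgeR. Creb1 was at 20.6 ± 1.72 CPM in Het and 17.3 ± 2.62 CPM in WT (adjusted p = 0.271). Of 8 genes that CREB is known to induce, 7 were tested and 0 passed in edgeR (0 at an unadjusted p under 0.05), DESeq2 or limma voom, with log2 fold changes from -0.43 to 0.69 and a median of 0.24.

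**Figure D5:**
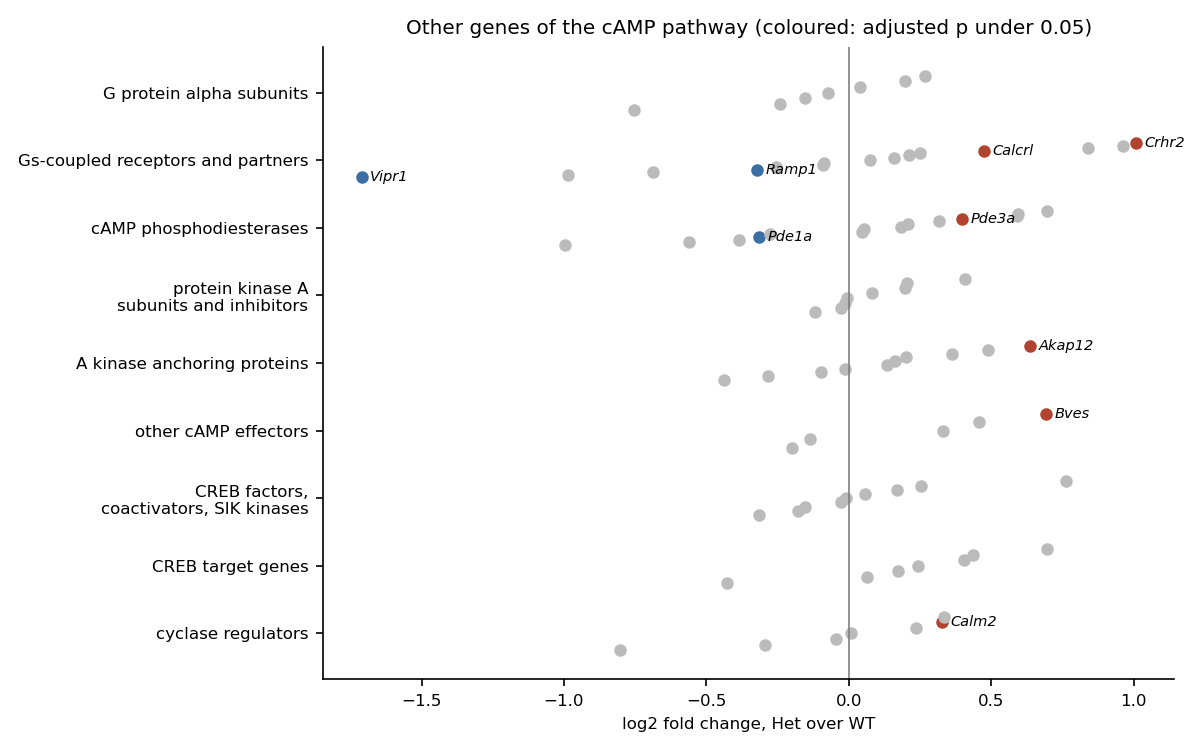
Log2 fold change of Het over WT for the 82 tested genes of the cyclic AMP pathway other than the cyclases, in 9 classes, with genes at an adjusted p under 0.05 in red (higher in Het) or blue (lower). The 9 named genes are spread over 5 classes, and none lies among the G protein alpha subunits, the protein kinase A subunits, the CREB factors or the CREB targets.

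The genes with the profile most like that of Adcy1 over the 11 libraries, by root mean square difference of standardized log2 CPM among 13905 genes, were Plau (0.309), Phldb2 (0.341), Spry2 (0.352), Slit3 (0.352) and Endod1 (0.368). All 5 had higher means in Het, with log2 fold changes of 0.40 to 1.60, as the likeness of a profile split by group requires. Adcy6 was the member nearest to Adcy1 at 0.889, at place 1176 of these genes, and Adcy7 the farthest at 1.91, among the members with a mean of at least 1 CPM. With each group's mean taken out, those near it included Gm6211 (0.351), Acsf3 (0.425), Tnfaip6 (0.452) and Slc41a3 (0.491), none of them among the first 5. For Adcy5 those near it included Trappc10 (0.381), Proser1 (0.427), Tigd4 (0.435) and B4galt3 (0.446), and with the group means out Eml4 (0.362), Trappc10 (0.451), Mllt11 (0.459) and Tedc1 (0.492). These are likenesses over few libraries that share scaling and depth, with no test.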

How the data were processed

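Per the labels' protocols, the kit was Nextera XT without strand, read singly to 75 nt in 2 pooled runs that the files do not separate. The authors deposited raw counts for 48709 mouse genes, and 24 other rows, at most 8.06e-05 percent of a library, were left out. Per the submitters' processing notes, GRCm38, limma, edgeR, DESeq2 and STAR 2.5.2a were used. Their roles, the annotation and the counter are not given in the sources used for this work. The deposited normalized signal, named TMM CPM, served an alternative test and differed by at most 0.806 percent from the CPM used here for the members. Columns were matched to samples by genotype and the number after the hyphen.

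Genes passing filterByExpr (minimum count 10, total 15) were scaled by TMM and tested in edgeR with its robust quasi-likelihood fit (edgeR 4.0.16, limma 3.58.1, R 4.3.3) over 11 libraries without covariates, at a Benjamini-Hochberg adjusted p under 0.05. SE is the size of a log2 fold change over the root of its F. The common coefficient of biological variation was 0.215. Levels per length use the union of exons in GENCODE. Motifs were searched on both strands. The test was checked on simulated data, where it recovered 38.8% of 1.5-fold, 67.2% of 2-fold and 92.4% of 4-fold changes. Of 139 calls there, 7 were false. A difference of 1.5-fold, of 2-fold and at times of 4-fold can thus fail to pass. The simulated counts held no difference by sex or column number, so the 7 false calls do not gauge the real contrast.

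The members, pathway lists, marker lists and alternatives were chosen with earlier results of these data known. The rule named all 9 members, pathway genes that passed (at most 14), Gnas, Gnai2, Prkaca, Prkar1a, Creb1, and the 5 genes nearest to the member of highest level and the member of largest fold change, of which some are not reported here; Cenpo, Adcy10 and the markers named singly were chosen after their values were seen. Alternatives were DESeq2 1.42.0, voom, other scalings and filters, pseudocounts of 1 and 0.5 on the deposited signal, a sex score (Y-linked genes less Xist, mean log2 CPM), Xist-positive libraries (at least 100 Xist counts), the column number, WT 1 and WT 2 left out together, a replicate block, and each library left out. By chi-square of the counts per gene, WT 1 and WT 2 were 13.21 from each other and 31.84 to 59.31 from WT 3 to WT 5. Pairs among WT 3 to WT 5 were at 15.35 to 23.32, and pairs of Het libraries at 10.86 to 27.1. What sets WT 1 and WT 2 apart was not tested. P-values measure the spread between these libraries.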

Additional observations from a re-analysis of the deposited data

Results flagged for a closer look

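In 46 groups of values examined for a single library far from the rest, 4 libraries stood out, where chance gives about 1 in 20, or 2.3 of 46. None concerned an adenylyl cyclase. Bves was 4.85 CPM in Het 3, against 7.42 to 8.46 CPM in the other Het libraries. Prkaca was 41.4 CPM in Het 2, against 31.7 to 33.4 CPM in the other Het libraries. Pde1a was 86.2 CPM in WT 4, against 91.0 to 92.6 CPM in the other WT libraries. Ramp1 was 461 CPM in WT 3, against 360 to 383 CPM in the other WT libraries.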

How the results depend on the processing

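The 742 genes called became 1295 with DESeq2, 123 with the sex score, 34 over the Xist-positive libraries, 415 with the column number, 432 without WT 1 and WT 2 together, and 458 (without WT 2) to 853 (without WT 4) with 1 library left out. Of the adenylyl cyclases, 2 were called, 1 (Adcy1) with the sex score and 1 (Adcy1) over the Xist-positive libraries, and 2 to 3 with 1 library left out, the third being Adcy6 without WT 4. Of the pathway genes, 9 were called, 1 with the sex score, 0 over the Xist-positive libraries, 5 with the column number, 4 without WT 1 and WT 2, and 4 (without Het 2 or WT 2) to 8 with 1 library left out, with 5 without Het 3, Het 4, Het 6 or WT 3. The cause was not tested. Same-numbered Het and WT libraries did not deviate together (correlation across genes -0.214 to 0.0595, and 0 of 5 nearest to their own number). No pairing by number was seen, although this check cannot exclude one. The replicate block called 332 genes, 2 cyclases and 3 pathway genes. Adcy1 kept its call in all 24 settings, at a log2 fold change of 1.92 to 2.68, but these settings reuse the values the family was chosen on. Adcy4 changed sign at 0.076 with the sex score, 0.070 over the Xist-positive libraries, 0.054 with the block, 0.0077 with upper quartile scaling, 0.0053 with voom, 0.0031 and 0.0027 on the deposited signal with pseudocounts of 0.5 and 1, and spanned -0.099 to 0.11 with 1 library left out. Adcy8 changed sign at 0.52 over the Xist-positive libraries and 0.49 when the sex score was fitted. Prkar1a changed sign at 0.020 over the Xist-positive libraries, 0.018 with the block, 0.028 with the sex score and 0.0082 without WT 1 and WT 2, and spanned -0.066 to 0.017 with 1 library left out. Adcy8 fell below the low count filter without Het 1, without Het 2 and at a mean of 1 CPM. Levels per length and their order did not change beyond the spread with the longest transcript or unscaled totals. Depth limits Adcy2 and Adcy8, with at most 24 and 19 counts in a library.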
